A study of Mus musculus with 16 samples.

Results

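The fat pad under the skin of the groin, or inguinal white adipose tissue (iWAT), was compared between SOD1G93A-Lepob/+ and Lepob/+ mice. Samples were taken by the genotype in their labels, 4 of each, which made 8 of the 16 samples sequenced. The other 8, 4 WT and 4 SOD1G93A, entered the shared fit and the comparison of backgrounds at the end. Lepob/+ mice carried 1 ob allele and 1 working allele of Lep, and SOD1G93A-Lepob/+ mice carried in addition a high-copy transgene of mutant human SOD1, which comes from the sire in a cross with Lepob/+ dams and is expressed in all tissues. All mice are labelled as C57BL/6 females of 90 days, with no drug or diet treatment in the labels, and the ob allele is common to both genotypes compared. RNA of 1 fat pad sample per library was read by paired-end sequencing and counted per gene. Total counts were 38 to 49.7 M in Lepob/+ and 36.8 to 46 M in SOD1G93A-Lepob/+.

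White adipocytes take up fatty acids from blood, make others from glucose by de novo lipogenesis, store them as triacylglycerol and release them again by lipolysis. They also secrete leptin, the product of Lep, which reports the size of the fat stores to the brain. The ob allele has a stop codon in Lep, so that mice with 1 copy make less hormone. SOD1 removes superoxide in all cells, and its mutant human forms misfold and cause a motor neuron disease in which energy balance is altered early. The inguinal pad of a female mouse also encloses a lymph node and mammary ducts and lies against the muscle of the body wall, so its RNA can hold transcripts of these tissues.

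3 of the 8 libraries stood apart, which bears on the values below. Lepob/+ replicate 3 held lymphoid transcripts: the 20 T cell markers summed to 31.4, 24.2, 1644 and 29.4 CPM (counts scaled to a common library size) in Lepob/+ replicates 1 to 4 and to 30.0, 36.2, 23.2 and 27.5 CPM in SOD1G93A-Lepob/+. Lepob/+ replicate 4 held skeletal muscle transcripts, with 26 fibre markers at 76.4, 74.5, 72.5 and 281200 CPM in Lepob/+ and 328, 64.5, 88.3 and 70.9 CPM in SOD1G93A-Lepob/+, and they made 18.6% of all its counts. The library labelled SOD1G93A-Lepob/+ replicate 3 had 0 counts of Xist and 1756 counts over 4 genes of the Y chromosome, against its label of a female, and the other 7 had 0 counts of these 4. Adipocyte transcripts were abundant in every library, as Adipoq, the gene of adiponectin, shows with 2753, 2062, 1209 and 1335 CPM in Lepob/+ and 2373, 2097, 3089 and 2267 CPM in SOD1G93A-Lepob/+. The transgene is a human gene, so mouse Sod1 at 358 ± 67.4 CPM in Lepob/+ and 392 ± 56.7 CPM in SOD1G93A-Lepob/+ (mean ± SD, n = 4) is no check of it. Nor is Lep a check of the ob allele, which differs by a base within the transcript.

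**Figure D1:**
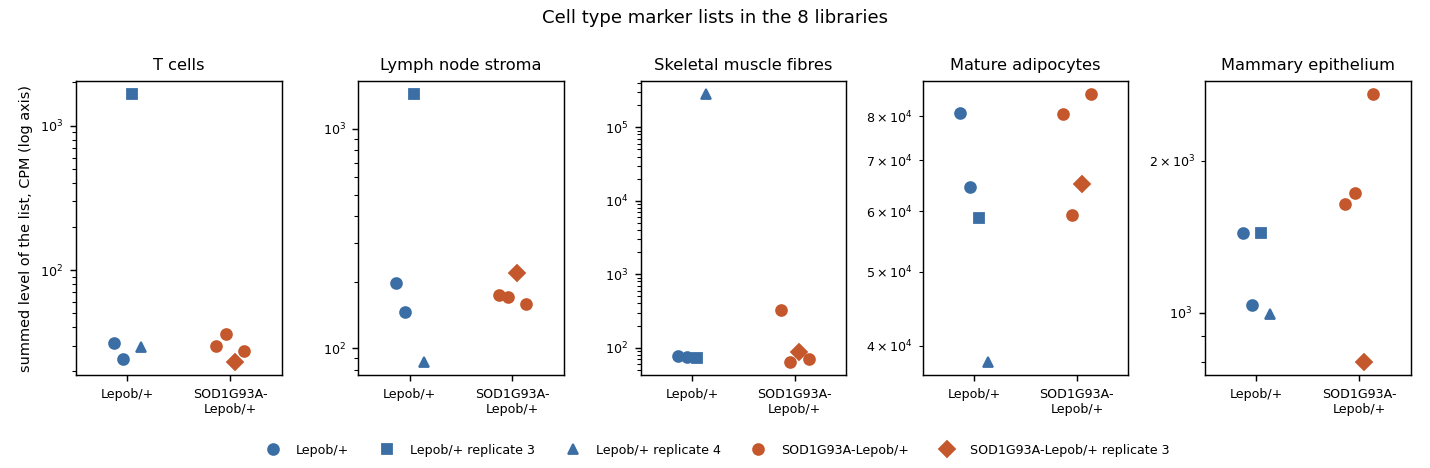
Summed level of 5 marker lists in each of the 8 libraries, in CPM on log axes, with 1 point per library and a separate symbol for each of the 3 libraries that stood apart. Lepob/+ replicate 3 stands alone in both lymphoid panels at 1644 and 1433 CPM, and Lepob/+ replicate 4 is highest for muscle fibres and lowest for mature adipocytes.

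The first question was which transcripts differ when the transgene is added to the Lepob/+ genotype. Of 19736 genes tested by edgeR's quasi-likelihood test, 0 (0%) passed a Benjamini-Hochberg adjusted p of 0.05, and the smallest adjusted p was 0.597. At an unadjusted p under 0.05 there were 1626 genes (8.24%), 387 higher in SOD1G93A-Lepob/+ (1.96%) and 1239 lower (6.28%). Without Lepob/+ replicates 3 and 4 this became 347 higher and 233 lower, so the excess of lower genes was not seen in the libraries that remained. The 4 libraries of each genotype did not overlap for 237 genes that were higher (1.2%) and 227 that were lower (1.15%). DESeq2 on the same 8 libraries called 34 of 18292 genes (0.186%), 16 higher and 18 lower, and limma voom, which gave Lepob/+ replicates 3 and 4 weights of 0.331 and 0.201, called 2. The genes described next are therefore the 10 with the smallest p in each direction among genes that have a symbol other than a predicted-gene name and a mean of at least 1 CPM over the 8 libraries, and none of them passed the edgeR threshold with all libraries. Predicted genes with a smaller p than some of them were left out of these 20, among them Gm48700 upward (unadjusted p = 0.000371, edgeR) and Gm43720 and Gm45717 downward (unadjusted p = 0.000254 and 0.00168, edgeR), whose levels are given further on. DESeq2 on the 8 libraries called 7 of the 10 upward genes (Pinc, Tm9sf1, Abhd15, Ap3s1, Apoc1, Slc36a1 and Aldh3b2) and 4 of the 10 downward genes (Fbxo34, Fbxw7, Rbm38 and Tbx1), at adjusted p from 0.00143 for Ap3s1 to 0.0411 for Apoc1. The 20 genes were picked by their edgeR p from these same counts, so the DESeq2 calls are no separate support for them. In RNA of a whole fat pad, fewer cells of a type and less RNA per cell cannot be told apart.

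Abhd15 (ENSMUSG00000000686, chr11:77515121-77538607 on GRCm38), a hydrolase-like protein of adipocytes that stabilises the phosphodiesterase through which insulin restrains lipolysis, had 29.5, 19.9, 19.2 and 20.1 CPM in Lepob/+ and 47.1, 32.0, 44.2 and 46.5 CPM in SOD1G93A-Lepob/+. The 4 double mutants all lay above the 4 Lepob/+ mice, by a log2 fold change of 0.94 ± 0.22 (SE, unadjusted p = 0.000794, edgeR). WT at 34.7, 27.6, 38.0 and 29.8 CPM and SOD1G93A at 29.5, 22.9, 46.6 and 26.3 CPM overlapped both groups. Apoc1 (ENSMUSG00000040564, chr7:19689481-19692660), an apolipoprotein of triacylglycerol-rich particles that inhibits lipoprotein lipase, had 27.5, 39.8, 33.3 and 28.8 CPM in Lepob/+ and 53.3, 56.4, 80.5 and 50.4 CPM in SOD1G93A-Lepob/+. The groups again did not overlap, with a log2 fold change of 0.89 ± 0.22 (unadjusted p = 0.00127, edgeR). Aldh3b2, an aldehyde dehydrogenase that acts on aldehydes of lipids, measured 14.3, 13.1, 15.6 and 11.3 CPM in Lepob/+ and 24.2, 18.2, 23.9 and 27.6 CPM in SOD1G93A-Lepob/+, with 0.79 ± 0.21 on the log2 scale. Srm, which makes spermidine, averaged 27.3 ± 2.75 CPM in Lepob/+ and 37.1 ± 4.23 CPM in SOD1G93A-Lepob/+ (mean ± SD, n = 4), and replicate 2 of the double mutants, at 31.2 CPM, fell just below the 31.3 CPM of Lepob/+ replicate 4.

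Ap3s1, a small subunit of the AP-3 adaptor that sorts proteins to lysosomes, had 61.3, 56.4, 57.9 and 60.4 CPM in Lepob/+ and 99.2, 81.3, 91.9 and 110.4 CPM in SOD1G93A-Lepob/+, a log2 fold change of 0.70 ± 0.17 (unadjusted p = 0.000844, edgeR). The Lepob/+ libraries with lymph node and muscle RNA lay inside the narrow range of their group, and all double mutants were above it. WT at 69.7, 69.95, 97.8 and 80.6 CPM and SOD1G93A at 74.1, 65.2, 110.7 and 70.25 CPM also lay above the Lepob/+ range. Tm9sf1 (ENSMUSG00000002320, chr14:55635965-55643806), a multi-pass protein of the endosomal system, had 26.2, 27.7, 22.0 and 23.1 CPM in Lepob/+ and 47.4, 36.4, 36.0 and 42.9 CPM in SOD1G93A-Lepob/+, with 0.72 ± 0.17 on the log2 scale. Summed with Gm49378, a predicted gene that overlaps it on the same strand, Tm9sf1 had 30.6, 31.0, 25.8 and 29.7 CPM in Lepob/+. By that sum WT at 45.5, 40.6, 36.7 and 43.0 CPM and SOD1G93A at 32.7, 53.1, 35.7 and 33.1 CPM also lay above the Lepob/+ range. Slc36a1 (ENSMUSG00000020261, chr11:55204350-55236330), a proton-coupled amino acid transporter of lysosomes, had 9.84, 8.63, 6.995 and 7.19 CPM in Lepob/+ and 44.7, 47.6, 10.1 and 37.8 CPM in SOD1G93A-Lepob/+. Of the double mutants only the library labelled replicate 3 was close to the Lepob/+ range, and the log2 fold change was 2.1 ± 0.55 (unadjusted p = 0.00181, edgeR). Slc36a1 took the same high and low levels outside these genotypes, with 36.6, 50.4, 5.50 and 52.6 CPM in WT and 40.5, 46.0, 50.7 and 42.6 CPM in SOD1G93A. Nectin2, a cell adhesion protein, and Prmt2, an arginine methyltransferase, had small differences with little spread, at 0.36 ± 0.10 and 0.45 ± 0.12 on the log2 scale, and their groups did not overlap.

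Pinc (ENSMUSG00000099877, chr1:73390775-73407569) had the smallest p of the 10 upward genes. It is a noncoding RNA first described in mammary epithelium, and its levels were 0.342, 0.489, 0.656 and 0.2 CPM in Lepob/+ and 2.46, 1.45, 0.862 and 3.76 CPM in SOD1G93A-Lepob/+. All double mutants lay above all Lepob/+ mice, by 2.27 ± 0.52 on the log2 scale (unadjusted p = 0.000592, edgeR), and the library labelled replicate 3 was the lowest of them. The mammary epithelial list of 20 genes, of which 18 were tested, had 16 of 18 members above 0, with a median log2 fold change of 0.57 beside -0.06 over all genes. The median was 0.26 without SOD1G93A-Lepob/+ replicate 4, the library with the highest sum. The summed level of the list was 1438, 1036, 1440 and 996 CPM in Lepob/+ and 1641, 1726, 801 and 2704 CPM in SOD1G93A-Lepob/+, so the groups overlapped, with 3 double mutants at the top and the library labelled replicate 3 at the bottom. Lalba, which codes for alpha-lactalbumin, had 0.221, 0.489, 0 and 0.466 CPM in Lepob/+ and 0.885, 0.874, 0.499 and 2.56 CPM in SOD1G93A-Lepob/+. These are low levels, at 11, 20, 0 and 14 counts in Lepob/+ and 40, 35, 22 and 91 counts in SOD1G93A-Lepob/+. Aqp5, a water channel of secretory epithelia, had 19.0, 21.5, 19.2 and 15.9 CPM in Lepob/+ and 57.9, 31.9, 13.9 and 80.8 CPM in SOD1G93A-Lepob/+. WT at 54.95, 29.77, 79.45 and 62.11 CPM also lay above the Lepob/+ range, and the paper lists Aqp5 as lower in Lepob/+ than in WT. SOD1G93A had 15.35, 10.86, 11.03 and 74.98 CPM of Aqp5, with low and high values. Epcam, an epithelial adhesion protein, had a log2 fold change of 0.59 ± 0.29. The share of duct epithelium in the pads was not measured, and its part in the Pinc values was not tested.

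**Figure D2:**
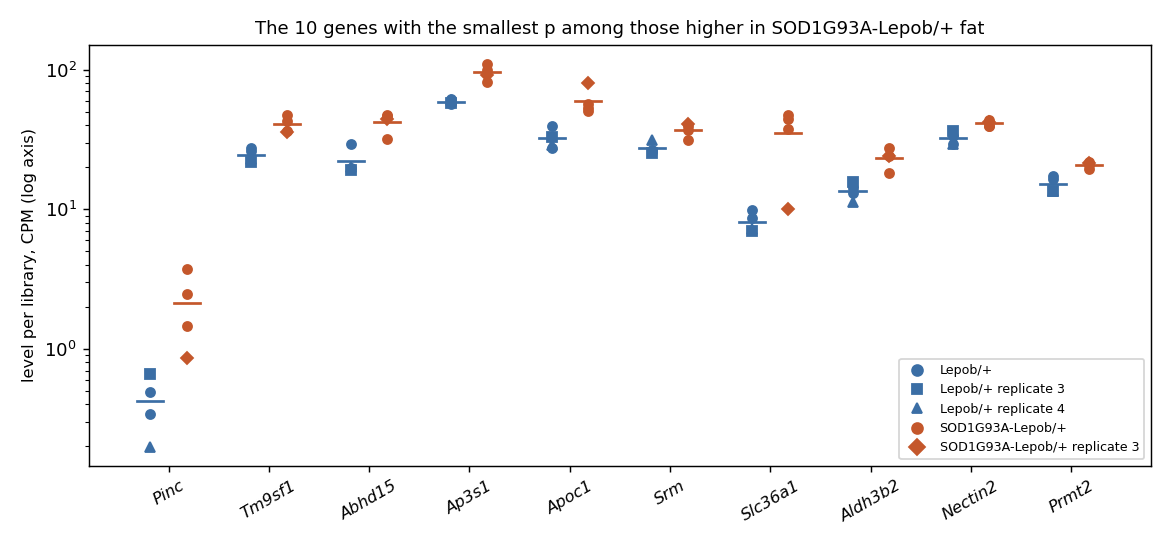
Level of the 10 upward genes in each of the 8 libraries, in CPM on a log axis, with Lepob/+ in blue, SOD1G93A-Lepob/+ in orange, a bar at each mean and the 3 libraries that stood apart drawn with their own symbols. The 2 groups separate for every gene shown but Srm, and Slc36a1 has 1 double mutant at 10.1 CPM near the Lepob/+ values.

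Fbxo34 (ENSMUSG00000037536, chr14:47450421-47531962) had the smallest p of these 20 genes. It codes for an F-box protein, a class of adaptors that bring substrates to ubiquitin ligases. Its levels were 20.4, 20.5, 15.8 and 17.4 CPM in Lepob/+ and 3.17, 5.55, 10.7 and 2.75 CPM in SOD1G93A-Lepob/+. All 4 double mutants lay below all 4 Lepob/+ mice, at a log2 fold change of -1.73 ± 0.33 (unadjusted p = 0.000102, adjusted p = 0.597, edgeR). WT at 19.4, 20.3, 19.4 and 20.2 CPM and SOD1G93A at 18.4, 17.7, 21.4 and 15.8 CPM spanned 15.8 to 21.4 CPM, so the low values were seen in the double mutants alone among these 16 libraries. The library labelled replicate 3 was the least low, and without it the log2 fold change was -2.27 with an adjusted p of 0.00131 (edgeR). DESeq2 on the 8 libraries gave an adjusted p of 0.0377, and limma voom gave 0.00609.

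Fbxw7 (ENSMUSG00000028086, chr3:84815268-84979198) belongs to the same class and is the substrate receptor through which cyclin E and Myc are degraded. It had 17.8, 16.6, 10.2 and 28.9 CPM in Lepob/+ and 7.22, 7.42, 6.85 and 7.44 CPM in SOD1G93A-Lepob/+, a log2 fold change of -1.34 ± 0.29 (unadjusted p = 0.000454, edgeR). The double mutants were within a narrow range, and the spread was on the Lepob/+ side, with the muscle library the highest. WT mice at 7.68, 17.5, 8.45 and 11.3 CPM also reached the low level. Cdkn1b, the cell cycle inhibitor p27, had 73.0, 58.4, 65.6 and 59.98 CPM in Lepob/+ and 38.6, 53.2, 43.1 and 46.4 CPM in SOD1G93A-Lepob/+, and its groups did not overlap, at -0.50 ± 0.13 on the log2 scale (unadjusted p = 0.00148, edgeR). Rbm38, an RNA-binding protein that acts on the p53 pathway and on myogenesis, had 25.1, 7.33, 71.9 and 119 CPM in Lepob/+ and 4.63, 5.52, 6.19 and 11.3 CPM in SOD1G93A-Lepob/+. The 2 libraries with foreign tissue were its highest, and its log2 fold change of -3.01 ± 0.74 became -1.22 without them.

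The other 6 of the 10 downward genes were high in the muscle library. Scn4a and Scn4b, subunits of the sodium channel of muscle, had 0.181, 0.171, 9.55 and 639 CPM and 4.93, 4.55, 7.87 and 704 CPM in Lepob/+ replicates 1 to 4, and spanned 0 to 0.531 CPM and 2.42 to 4.24 CPM in the double mutants. Both were highest in replicate 4 and next highest, far below it, in replicate 3. Adssl1, the muscle form of adenylosuccinate synthase, reached 963 CPM in replicate 4 and spanned 7.90 to 11.6 CPM in the double mutants. Ip6k3, an inositol phosphate kinase found mainly in muscle, was at 47.4 CPM in replicate 4 against 0.59 to 2.00 CPM in the double mutants, and Mapt, the gene of the microtubule protein tau, at 87.2 CPM against 0.487 to 1.10 CPM. Replicate 4 was the highest Lepob/+ library for all of them. Tbx1, a transcription factor of branchial muscle that is also used as a marker of beige fat, had 2.03, 0.538, 3.57 and 36.1 CPM in Lepob/+ and 0.288, 0.425, 0.181 and 1.26 CPM in SOD1G93A-Lepob/+. Without Lepob/+ replicates 3 and 4, the log2 fold changes of these 6 genes lay between -1.66 for Mapt and 0.18 for Scn4a.

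**Figure D3:**
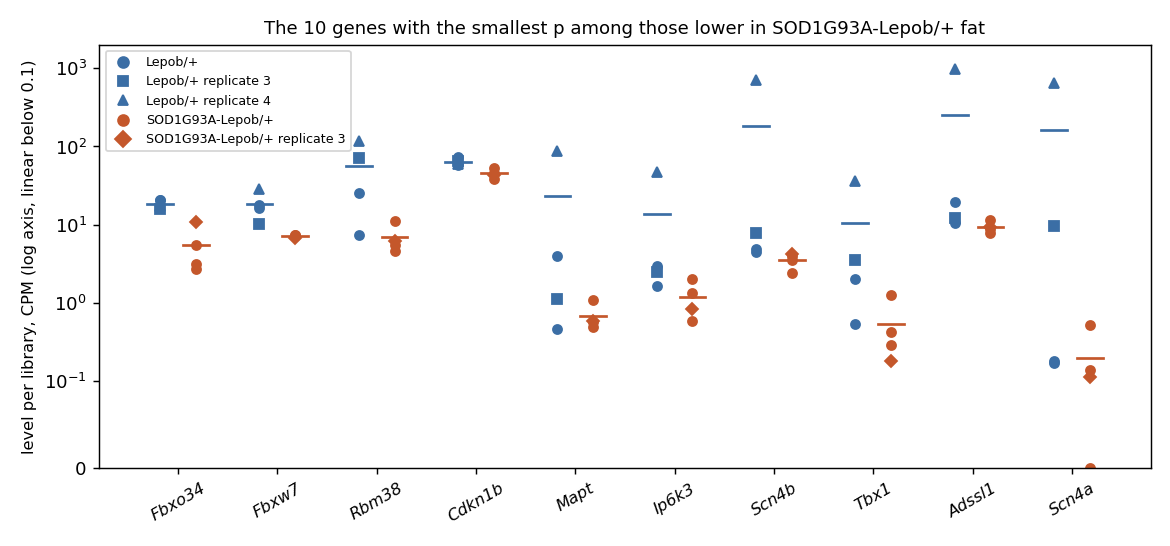
Level of the 10 downward genes in each of the 8 libraries, in CPM on a log axis that is linear below 0.1, with bars at the means. Fbxo34, Fbxw7, Cdkn1b and Scn4b separate the groups, and from Mapt onward the Lepob/+ mean is carried by the triangle of replicate 4.

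Of the 26 skeletal muscle markers, 26 had a log2 fold change below 0 and 24 reached an unadjusted p under 0.05 downward, beside 6.28% of all genes. The median was -8.85, and 0.92 without Lepob/+ replicate 4, where the double mutant of replicate 1 held the most muscle RNA at 327.7 CPM. Acta1, skeletal alpha-actin, chosen here after its values were seen, shows the contrast in level, with 9.49, 12.9, 2.96 and 44600 CPM in Lepob/+ and 59.7, 12.7, 23.9 and 15.8 CPM in SOD1G93A-Lepob/+. Its promoter holds a match to the CArG box, the sequence that serum response factor binds before many contractile genes. The 250 bases before its start from RefSeq (GRCm38.p6, chr8:123894776-123895025, minus strand) are shown because Acta1 stands for the muscle genes that were high in Lepob/+ replicate 4, with the match in capitals, starting 73 bases before the start.
Acta1: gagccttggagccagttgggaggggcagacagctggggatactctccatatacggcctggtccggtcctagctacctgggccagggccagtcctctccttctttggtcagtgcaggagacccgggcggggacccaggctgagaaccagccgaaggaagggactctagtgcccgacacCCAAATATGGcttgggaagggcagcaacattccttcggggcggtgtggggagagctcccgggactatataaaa
A CArG box on either strand was found in the same window of 2 of 20 muscle list genes with a promoter in the table, Acta1 and Myh4, and of 439 of 27025 genes in all (1.62%). The E-box CANNTG, bound by MyoD and many other factors, was in 17 of 20 muscle promoters and in 69.3% of all. Eno3, the muscle enolase, at 15.4, 15.2, 29.7 and 5787 CPM and Ryr1, the calcium release channel, at 3.74, 9.78, 3.01 and 5132 CPM in Lepob/+ had the same pattern. Genes that muscle raises on denervation, a list with 10 of 12 below 0, had a median of -1.83 and of 0.45 without the 3 libraries.

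Lymphoid lists had the counterpart in Lepob/+ replicate 3. All 20 T cell genes and 17 of 18 B cell genes were below 0, with medians of -4.28 and -5.00. Of them 17 and 13 reached an unadjusted p under 0.05 downward (edgeR), beside 6.28% of all genes. The medians were 0.10 and 0.00 without that library. Cd8b1, a chain of the CD8 coreceptor, had 0.322, 0.342, 65.1 and 0.533 CPM in Lepob/+ and 0.0664, 0.35, 0.159 and 0.421 CPM in SOD1G93A-Lepob/+. Cd22, an inhibitory receptor of B cells, had 1.23, 0.855, 204 and 0.766 CPM in Lepob/+ and 1.02, 1.52, 0.748 and 1.10 CPM in SOD1G93A-Lepob/+. Glycam1, a ligand for lymphocyte homing made by high endothelial venules of lymph nodes, was at 0.0603, 0, 614 and 0 CPM in Lepob/+ and had 0 counts in all 4 double mutants. Ighg2b, an antibody heavy chain, was at 114 CPM in replicate 3, at 6.13 CPM in replicate 4, at 0.0999 CPM in SOD1G93A-Lepob/+ replicate 2 and at 0 in the other 5. Plasma cells, NK cells and dendritic cells had medians of -0.78, -0.99 and -0.46, which came to 0.12, 0.35 and -0.30 without the 3 libraries.

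Adipocyte genes had means that were mostly higher in the double mutants, and 0 of them passed the edgeR test. Of the mature adipocyte markers 18 of 20 were above 0, beside 42.1% of all genes, with a median of 0.37 and of 0.11 without the 3 libraries. Fabp4, the main fatty acid carrier of adipocytes, had a log2 fold change of 0.50 ± 0.28, and Lipe, hormone-sensitive lipase, of 0.40 ± 0.24 (SE). Both had overlapping groups, with Lepob/+ replicates 3 and 4 at 5392 and 5663 CPM as the lowest for Fabp4 and Lepob/+ replicate 4 as the lowest for Lipe, and without the 3 libraries Fabp4 had 0.19 and Lipe 0.27. Lep itself had 558, 447, 181 and 687 CPM in Lepob/+ and 691, 549, 1843 and 578 CPM in SOD1G93A-Lepob/+. The library labelled replicate 3 gave the highest value, and the log2 fold change was 0.97 ± 0.59 with that library and 0.29 without the 3 libraries. Lepr, the leptin receptor gene, averaged 5.88 ± 2.30 CPM (SD, n = 4) in Lepob/+ and 5.70 ± 0.576 CPM in SOD1G93A-Lepob/+. Among other adipokines 11 of 14 were above 0 with a median of 0.21, but 5 of 14 with a median of -0.13 without the 3 libraries. Apln, the peptide apelin, had 8.75, 7.14, 6.10 and 8.53 CPM in Lepob/+ and 11.6, 7.77, 23.4 and 14.0 CPM in SOD1G93A-Lepob/+, a log2 fold change of 0.89 ± 0.32 (unadjusted p = 0.0153, edgeR), which was 0.54 without the library labelled SOD1G93A-Lepob/+ replicate 3 and 0.50 without the 3 libraries. Rbp4, the retinol carrier, had 271, 234, 179 and 130.2 CPM in Lepob/+ and 412, 208, 324 and 401 CPM in SOD1G93A-Lepob/+, a log2 fold change of 0.72 ± 0.34 and of 0.45 without the 3 libraries.

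Of 12 genes of fatty acid uptake 10 were above 0 with a median of 0.34, which was 0.14 without the 3 libraries, and 2 reached an unadjusted p under 0.05 upward, beside 1.96% of all genes. Slc27a4, the fatty acid transport protein FATP4, had 51.3, 47.7, 41.4 and 38.7 CPM in Lepob/+ and 65.9, 54.4, 58.2 and 63.8 CPM in SOD1G93A-Lepob/+, and its groups did not overlap, at 0.44 ± 0.13 on the log2 scale (unadjusted p = 0.00449, edgeR). Angptl4, an inhibitor of lipoprotein lipase that fasting and fatty acids induce, had 446, 425, 196 and 248 CPM in Lepob/+ and 490.1, 481, 516 and 400.2 CPM in SOD1G93A-Lepob/+. In the 2 Lepob/+ mice without foreign tissue Angptl4 was at the level of the double mutants, and without the 3 libraries the log2 fold change was 0.08. Fabp5, a second fatty acid carrier, had 0.72 ± 0.34 on the log2 scale. Abhd5, the activator of adipose triglyceride lipase, had 118, 94.6, 83.5 and 80.3 CPM in Lepob/+ and 135, 112, 110.1 and 145 CPM in SOD1G93A-Lepob/+, with 0.42 ± 0.18 on the log2 scale, and Plin2, a coat protein of lipid droplets, had 0.39 ± 0.22. In the lipolysis list as a whole 13 of 18 were above 0 and 5 below, with medians of 0.20 and of 0.15 without the 3 libraries. The smallest p of that list was on the lower side, for Fitm1 at -7.545 ± 2.84 on the log2 scale (unadjusted p = 0.0186, edgeR). Cidea and Plin5, at -1.88 and -0.85, were lower too.

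The median of the de novo lipogenesis list depended on single libraries. Of 20 genes 17 were above 0 with all libraries, with a median of 0.28, which was -0.03 without SOD1G93A-Lepob/+ replicate 4 and 0.82 without Lepob/+ replicate 3. Without the 3 libraries that stood apart 20 of 20 were above 0, with a median of 0.77 beside 0.00 for all genes. That setting leaves only replicates 1 and 2 of Lepob/+. With all libraries the summed level of the list overlapped, at 16860 to 57470 CPM in Lepob/+ and 21860 to 63060 CPM in SOD1G93A-Lepob/+. Dgat2, which completes triacylglycerol synthesis, had 645, 517, 1082 and 637 CPM in Lepob/+ and 1343, 566, 1888 and 1346 CPM in SOD1G93A-Lepob/+, and the double mutant of replicate 2 lay inside the Lepob/+ range. Elovl5, an elongase of polyunsaturated fatty acids, had 0.27 ± 0.14 on the log2 scale, and 0.10 without the 3 libraries. Acacb, the acetyl-CoA carboxylase that regulates entry of fatty acids into mitochondria, went the other way with 126, 116, 516 and 439 CPM in Lepob/+ and 159.7, 86.6, 47.7 and 245 CPM in SOD1G93A-Lepob/+, and Lepob/+ replicates 3 and 4 held the high values. The list of cholesterol synthesis had 14 of 23 above 0 with medians of 0.13 and of 0.15 without the 3 libraries.

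Oxidative genes lay mostly below 0 with all libraries, and their medians moved towards or past 0 without the muscle library. Of the nuclear genes of oxidative phosphorylation 35 of 36 were below 0 with a median of -0.37, which was -0.07 without Lepob/+ replicate 4 and 0.02 without the 3 libraries. The 13 mitochondrially encoded genes had a median of -0.29, which turned to 0.08 without Lepob/+ replicate 4 and to 0.36, with 13 of 13 above 0, without the 3 libraries. Pdk4, the kinase that turns off pyruvate oxidation in fasting, had 89.6, 70.1, 207 and 1052 CPM in Lepob/+ and 66.4, 79.9, 58.8 and 83.9 CPM in SOD1G93A-Lepob/+, and Cox7a1, a cytochrome oxidase subunit of muscle and brown fat, 2.94, 4.47, 23.0 and 134 CPM in Lepob/+ and 3.56, 2.30, 6.15 and 4.89 CPM in SOD1G93A-Lepob/+. Ppargc1a, the coactivator of mitochondrial biogenesis, had 6.15, 3.67, 7.02 and 16.02 CPM in Lepob/+ and 3.14, 5.37, 2.83 and 4.07 CPM in SOD1G93A-Lepob/+. Cpt1b, the muscle form of the enzyme that admits fatty acids to mitochondria, had 3.28, 2.102, 86.3 and 288 CPM in Lepob/+ and 7.75, 4.57, 9.89 and 9.04 CPM in SOD1G93A-Lepob/+, and Ucp3, an uncoupling protein of muscle, had -1.27 ± 0.49 on the log2 scale and -0.35 without Lepob/+ replicate 4. For each of these 5 genes replicate 4 was the highest Lepob/+ library. Ucp1, the uncoupling protein of thermogenic fat, chosen here after its values were seen, had 1.03, 1.91, 313 and 0.833 CPM in Lepob/+ and 0.819, 0.175, 27.9 and 3.65 CPM in SOD1G93A-Lepob/+. The highest Lepob/+ library was replicate 3, as was the highest double mutant, and Ucp1 reached 75.6, 7.23, 3.16 and 24.1 CPM in SOD1G93A. The thermogenic list had a median of -0.73 and of 0.07 without the 3 libraries.

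**Figure D4:**
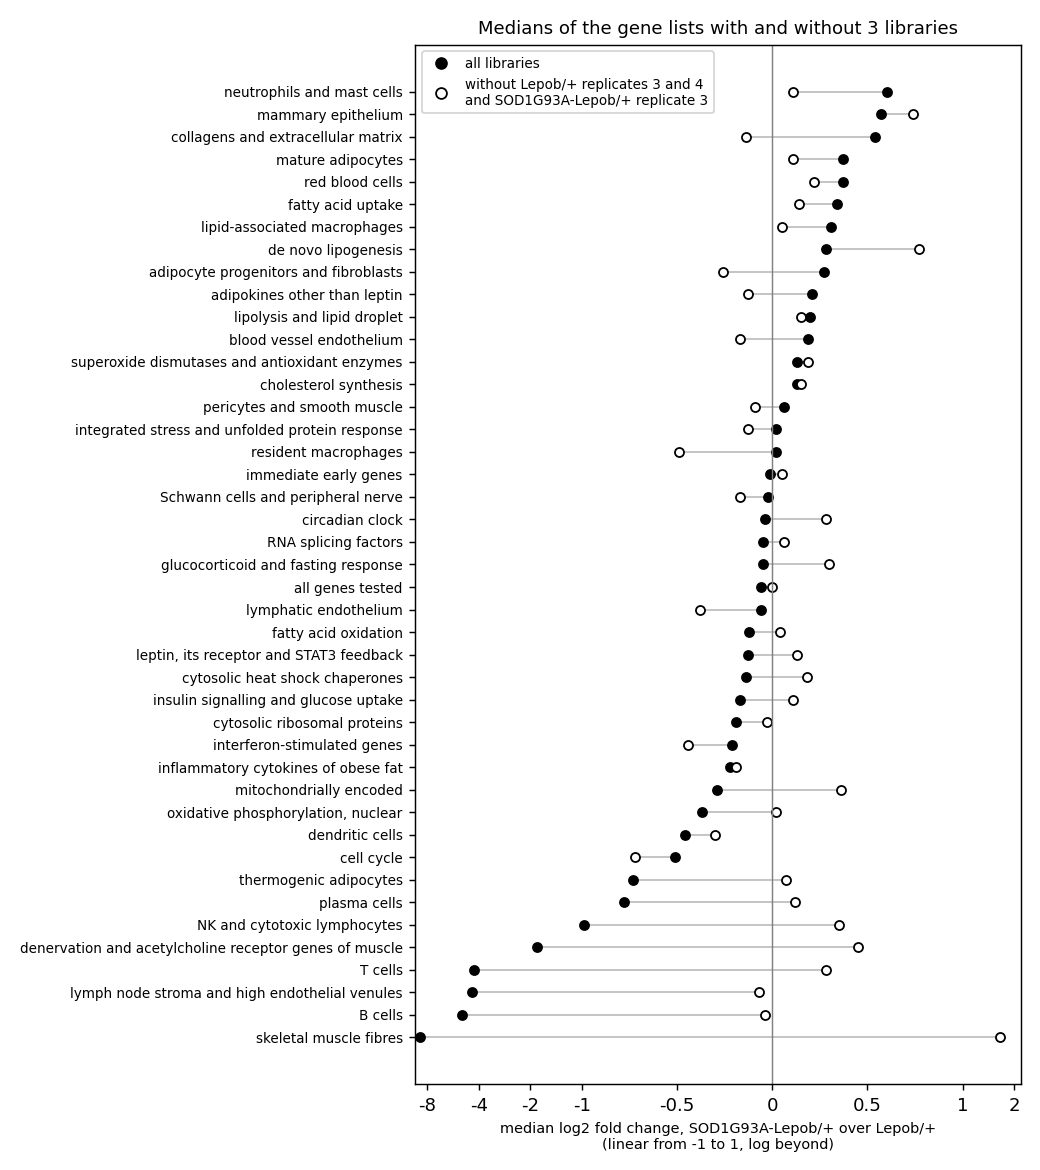
Median log2 fold change of 42 gene lists and of all genes tested, with all libraries (filled) and without the 3 libraries that stood apart (open), on an axis that is linear from -1 to 1 and logarithmic beyond. The muscle and lymphoid lists move from -8.85 and from medians between -4.28 and -5 to 1.65 and to between -0.07 and 0.28, while the plotted medians of de novo lipogenesis and mammary epithelium are above 0 and those of the cell cycle list below 0 in both settings.

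Genes of the defence against oxidants and of the unfolded protein response had small medians. In the antioxidant list 19 of 25 were above 0, with a median of 0.13, and of 0.19 without the 3 libraries. Prdx6, a peroxiredoxin that reduces phospholipid peroxides, had 211, 203, 169 and 205 CPM in Lepob/+ and 247, 258, 250.2 and 278 CPM in SOD1G93A-Lepob/+, and its groups did not overlap, at 0.39 ± 0.20 on the log2 scale (unadjusted p = 0.0765, edgeR). Gsr, glutathione reductase, had 65.7, 63.5, 48.2 and 52.9 CPM in Lepob/+ and 81.1, 70.1, 50.0 and 116 CPM in SOD1G93A-Lepob/+, and the library labelled replicate 3 was the lowest double mutant. The list of the integrated stress and unfolded protein responses had a median of 0.02 with 14 of 26 above 0, and of -0.13 with 7 of 26 above 0 without the 3 libraries. Dnajc3, an endoplasmic reticulum chaperone and inhibitor of PERK, had 122, 121, 109 and 93.6 CPM in Lepob/+ and 125, 128, 128 and 146 CPM in SOD1G93A-Lepob/+, with 0.24 ± 0.11 on the log2 scale, and 0.15 without the 3 libraries. Chac1, a glutathione-degrading enzyme induced by ATF4, had 8.35, 5.82, 3.06 and 138 CPM in Lepob/+ and 5.96, 6.15, 4.13 and 3.37 CPM in SOD1G93A-Lepob/+. Atf4, the transcription factor of that response, was chosen here after its values were seen. It had 81.0, 90.3, 84.0 and 274 CPM in Lepob/+ and 156, 173, 170.2 and 152 CPM in SOD1G93A-Lepob/+, and without Lepob/+ replicate 4 its log2 fold change was 0.94 with an adjusted p of 0.0359 (edgeR). WT at 149.5, 149.7, 172 and 148 CPM and SOD1G93A at 164, 182, 132 and 144 CPM were at the level of the double mutants, and Lepob/+ replicates 1 to 3 were the lowest 3 of the 16 libraries.

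Cytosolic chaperones had a median of -0.14, and of 0.18 with 19 of 20 above 0 without the 3 libraries. Dnaja1, a co-chaperone of HSP70, had the lowest p of that list, at 0.25 ± 0.10 on the log2 scale. Among immediate early genes Nr4a1, an orphan nuclear receptor, had 14.0, 11.4, 26.4 and 308 CPM in Lepob/+ and 8.75, 16.3, 17.6 and 6.91 CPM in SOD1G93A-Lepob/+, high in the muscle library, and the list median was -0.01, and 0.05 without the 3 libraries. Of clock genes, Arntl, the activator also called BMAL1, had 20.2, 19.9, 12.3 and 16.02 CPM in Lepob/+ and 6.66, 11.6, 11.6 and 7.13 CPM in SOD1G93A-Lepob/+. Its groups did not overlap, at -0.89 ± 0.35 on the log2 scale (unadjusted p = 0.0244, edgeR). WT at 8.27, 13.75, 7.39 and 15.9 CPM and SOD1G93A at 9.72, 13.3, 4.07 and 11.96 CPM overlapped both groups. The median of the clock list was -0.04, and 0.28 with 16 of 19 above 0 without the 3 libraries. The hour at which the pads were taken is not given in the sources used here.

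The medians of several stromal and immune lists changed sign between settings. Timp3, an inhibitor of matrix proteases, had 585, 509.8, 296 and 527 CPM in Lepob/+ and 720.3, 619.9, 844 and 764 CPM in SOD1G93A-Lepob/+, and its groups did not overlap, at 0.62 ± 0.28 on the log2 scale (unadjusted p = 0.0443, edgeR), and at 0.37 without the 3 libraries. Postn, the matrix protein periostin, had 0.69 ± 0.32 on the log2 scale, and 0.45 without the 3 libraries. The list of collagens and matrix genes had 24 of 25 above 0 with a median of 0.54, and 5 of 25 with a median of -0.14 without the 3 libraries. Progenitors and fibroblasts went from 0.27 to -0.26, and vessel endothelium from 0.19 to -0.17. F3, tissue factor, a marker of a progenitor subset, had 43.8, 43.0, 49.0 and 52.8 CPM in Lepob/+ and 95.7, 53.4, 59.4 and 140.2 CPM in SOD1G93A-Lepob/+, and the 4 double mutants lay above the Lepob/+ range, replicate 2 by little. Resident macrophage markers had a median of 0.02, and of -0.49 with 1 of 18 above 0 without the 3 libraries, where only 2 Lepob/+ mice are left, and of 0.53 without Lepob/+ replicate 2. Cd163, a scavenger receptor of resident macrophages, had 186, 248, 68.7 and 58.4 CPM in Lepob/+ and 173, 234, 145 and 239.6 CPM in SOD1G93A-Lepob/+, and Adgre1, which codes for F4/80, had -0.38 ± 0.51 on the log2 scale, with -0.14 without Lepob/+ replicate 2 and -0.70 without Lepob/+ replicate 3. In the list of neutrophils and mast cells 9 of 12 were above 0, with a median of 0.60, which was 0.11 without the 3 libraries. It held Cma1, a chymase of mast cells, with 30.4, 34.2, 13.1 and 9.36 CPM in Lepob/+ and 33.6, 38.6, 37.0 and 37.9 CPM in SOD1G93A-Lepob/+, a log2 fold change of 0.75 ± 0.34 and of 0.20 without the 3 libraries, and Ms4a2, a chain of the IgE receptor, with 0.113 to 1.05 CPM over all 16 libraries. The smallest p of that list was on the lower side, for Cxcr2 at -5.39 ± 1.76 on the log2 scale (unadjusted p = 0.0106, edgeR). Irgm1, a GTPase induced by interferon, had 74.1, 119.6, 61.1 and 102 CPM in Lepob/+ and 67.5, 70.5, 55.2 and 55.6 CPM in SOD1G93A-Lepob/+, with -0.52 ± 0.35 on the log2 scale. Interferon-stimulated genes were below 0 in 24 of 26 cases, with a median of -0.21, which was -0.44 without the 3 libraries and turned to 0.12 without Lepob/+ replicate 2. Cell cycle genes were below 0 in 21 of 22 cases with a median of -0.51, which was -0.20 without Lepob/+ replicate 3, the lymph node library, -0.85 without the library labelled SOD1G93A-Lepob/+ replicate 3 and -0.72 without the 3 libraries. Mcm2, a subunit of the replicative helicase, had 11.3, 13.6, 32.7 and 21.7 CPM in Lepob/+ and 11.1, 10.6, 12.8 and 10.1 CPM in SOD1G93A-Lepob/+, and Top2a, topoisomerase II alpha, -0.92 ± 0.64 on the log2 scale. The lymph node library was the highest Lepob/+ library for both, and without it Top2a had -0.38. In the resident macrophage, interferon and cell cycle lists, 0 genes reached an unadjusted p under 0.05 in edgeR, and DESeq2 on the 8 libraries called 0.

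The remaining lists had small medians, some of which changed sign without the 3 libraries that stood apart. Leptin, its receptor and the genes of STAT3 feedback, through which the hormone acts in the cell, had 2 of 9 above 0 with a median of -0.13, but 7 of 9 with a median of 0.13 without the 3 libraries. Sh2b1, an adaptor that aids leptin receptor signalling, had 55.2, 47.7, 67.0 and 112 CPM in Lepob/+ and 57.0, 55.2, 54.3 and 55.3 CPM in SOD1G93A-Lepob/+. With all libraries and without the 3, in this order, the medians were -0.17 and 0.11 for insulin signalling, -0.12 and 0.04 for fatty acid oxidation, -0.05 and 0.30 for the glucocorticoid and fasting response and -0.22 and -0.19 for cytokines of obese fat. In the same order they were 0.31 and 0.05 for lipid-associated macrophages, 0.37 and 0.22 for red blood cells, 0.06 and -0.09 for pericytes and smooth muscle, -0.06 and -0.38 for lymphatic endothelium and -0.02 and -0.17 for Schwann cells. Ribosomal protein genes were below 0 in 40 of 40 cases with a median of -0.19, which was -0.03 without the 3 libraries. Of 45 splicing factors 2 reached an unadjusted p under 0.05 downward, beside 6.28% of all genes, and Son, a scaffold of nuclear speckles, had 219, 168, 236 and 249.5 CPM in Lepob/+ and 167, 168, 149.5 and 186 CPM in SOD1G93A-Lepob/+, with -0.38 ± 0.14 on the log2 scale (unadjusted p = 0.02, edgeR), and -0.14 without the 3 libraries.

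Some genes that DESeq2 called, or edgeR called once a library was left out, had steps between libraries of 1 genotype that were as large as the difference between genotypes. Kmt2a, a histone H3 methyltransferase, had 4.55, 3.67, 10.5 and 2.76 CPM in Lepob/+, 3.39, 69.3, 59.2 and 62.4 CPM in SOD1G93A-Lepob/+, 9.20, 6.53, 57.0 and 54.2 CPM in WT and 109, 10.7, 57.8 and 110.4 CPM in SOD1G93A. High and low values occurred in 3 of the 4 genotypes, and the DESeq2 adjusted p on the 8 libraries was 0.0257 at a log2 fold change of 3.15. Abi2, a regulator of actin branching, had 2.17, 2.40, 1.77 and 8.53 CPM in Lepob/+, 14.3, 17.0, 19.5 and 14.2 CPM in SOD1G93A-Lepob/+, 11.4, 15.9, 17.3 and 2.80 CPM in WT and 12.1, 14.6, 2.81 and 16.5 CPM in SOD1G93A, with low values also in 1 WT and 1 SOD1G93A library. Bzw1, a regulator of translation initiation that edgeR called without Lepob/+ replicates 3 and 4 (log2 fold change 1.45, adjusted p = 0.000286), had 74.6, 75.0, 183 and 193 CPM in Lepob/+, 203, 179, 218 and 208 CPM in SOD1G93A-Lepob/+, 192, 182, 184 and 185 CPM in WT and 204, 203, 187 and 212 CPM in SOD1G93A. Its low values were those of Lepob/+ replicates 1 and 2 and of no other library.

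Counts of overlapping gene models also bear on these calls. Ptp4a1, a phosphatase, has a pair of identifiers that share most of their span on chromosome 1, from 30940302 to 30949309 and to 30949770. The shorter had 57.3, 51.2, 61.4 and 62.5 CPM in Lepob/+ and 6.82, 8.32, 56.1 and 11.1 CPM in SOD1G93A-Lepob/+, a log2 fold change of -1.50 ± 0.54 (unadjusted p = 0.0144, edgeR), and the longer 29.8, 26.0, 27.1 and 19.6 CPM in Lepob/+ and 86.4, 70.3, 42.7 and 109 CPM in SOD1G93A-Lepob/+, with 1.59 ± 0.49. Their directions were opposite, and the sum was 87.2, 77.2, 88.5 and 82.1 CPM in Lepob/+ and 93.2, 78.7, 98.8 and 120.4 CPM in SOD1G93A-Lepob/+. Gm43720, a predicted gene called by DESeq2 on the 8 libraries, had 0.342, 1.93, 1.14 and 3.06 CPM in Lepob/+ and 0.0221, 0, 0.0227 and 0 CPM in SOD1G93A-Lepob/+ and overlaps Gpc2, a glypican gene on the same strand, which had 3.12, 1.83, 2.62 and 0.467 CPM and 4.49, 5.10, 3.65 and 4.10 CPM. Slco5a1, an organic anion transporter called by DESeq2, was above 1 CPM among the 8 libraries only in the 2 Lepob/+ libraries with foreign tissue. It had 0.101, 0.122, 9.04 and 24.6 CPM in Lepob/+ and 0.487, 0.2, 0.249 and 0.225 CPM in SOD1G93A-Lepob/+. Outside these genotypes Slco5a1 had 408, 336, 41 and 15 counts in WT and 404, 507, 9 and 393 counts in SOD1G93A. Gm48700, a predicted gene inside Nrxn3, had 0.141, 0.22, 0.194 and 0.167 CPM in Lepob/+ and 1.64, 0.625, 0.726 and 1.66 CPM in SOD1G93A-Lepob/+ and did not overlap between groups, with a log2 fold change of 2.54 ± 0.55 (unadjusted p = 0.000371, edgeR).

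The last question was whether the transgene difference depended on the Lep genotype, tested as the difference between SOD1G93A-Lepob/+ minus Lepob/+ and SOD1G93A minus WT, which share no library. With edgeR 0 of 19736 genes passed (0%), at a smallest adjusted p of 0.564, and 1574 (7.98%) had an unadjusted p under 0.05. DESeq2 on all 16 libraries called 46, 9 higher and 37 lower, and limma voom 0. The lower genes included Glycam1, at a log2 fold change of -31.2 with 0 counts in every double mutant. With 0 counts in a whole group, the size of such an estimate is not a measured difference. They also included segments of antibody and T cell receptor genes, such as Igkv4-70 at -25.2 and Trbv13-1 at -24.5. Lymph node libraries were spread unevenly here, with T cell sums of 1466, 1097, 36.5 and 50.9 CPM in WT and 1443, 2216, 25.5 and 1276 CPM in SOD1G93A, and WT replicate 3 held 7339 CPM of muscle markers. The T cell list had a median of -4.28 on the Lepob/+ background and of 0.90 on the wild-type background, and the muscle list of -8.85 and -2.20. For de novo lipogenesis the medians were 0.28 and 0.01, for mammary epithelium 0.57 and -0.37, and for interferon-stimulated genes -0.21 and 0.47. On the Lepob/+ background the first and the last of these turned sign when 1 library was left out, as given above.

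Apoc1 and Pinc were among the 5 genes with the smallest p for this difference. Apoc1 had a log2 fold change of 0.89 ± 0.22 on the Lepob/+ background and of -0.51 ± 0.22 on the wild-type background, where WT mice had 52.3, 57.8, 50.6 and 37.8 CPM and SOD1G93A mice 49.1, 23.6, 37.1 and 30.0 CPM. The difference was 1.40 (unadjusted p = 0.000537, adjusted p = 0.564, edgeR). Pinc had 2.27 ± 0.52 and -0.78 ± 0.49, a difference of 3.05 (unadjusted p = 0.000765). Gm525 and Gm18537 are predicted genes with 0.462 to 1.78 CPM and 0.465 to 5.08 CPM over all libraries, and had differences of 1.72 and -3.19. Gm45717 had 0, 176, 0.17 and 89.5 CPM in Lepob/+, 0, 0.25, 0 and 0 CPM in SOD1G93A-Lepob/+, 0.124, 0.273, 0.232 and 0 CPM in WT and 0.341, 77.4, 115 and 94.0 CPM in SOD1G93A, and it overlaps Ifitm2, an interferon-induced membrane protein, on the same strand. Their sum was 208, 296, 101 and 152 CPM in Lepob/+ and 215, 233, 226 and 201 CPM in SOD1G93A-Lepob/+. Fbxo34 had -1.73 ± 0.33 and -0.11 ± 0.32, a difference of -1.62 (unadjusted p = 0.00281), and it passed the edgeR threshold for this difference without the library labelled SOD1G93A-Lepob/+ replicate 3.

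**Figure D5:**
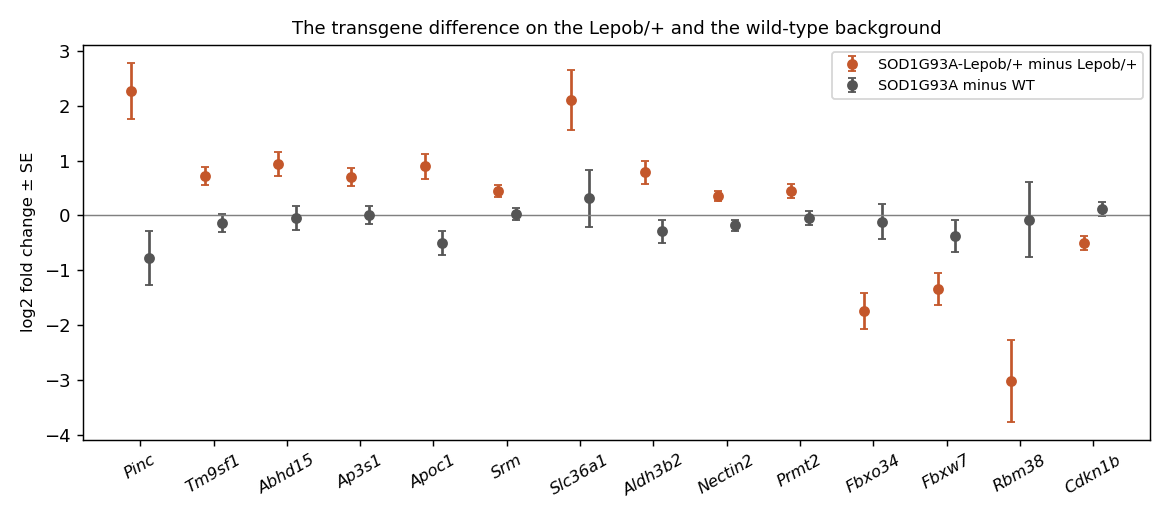
Log2 fold change of 14 genes with the transgene on the Lepob/+ background (orange) and on the wild-type background (grey), with bars of 1 SE from edgeR. On the wild-type background the points lie between -0.78 for Pinc and 0.31 for Slc36a1, and the genes were chosen by their p on the Lepob/+ background.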

How the data were processed

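RNA of iWAT from 4 mice per genotype was sequenced in pairs, and 1 table of raw counts per Ensembl gene was deposited. The authors trimmed reads with fastp, aligned them to mm10 with HISAT2 2.1.0 and counted unique alignments with featureCounts 2.0.2, as the methods and the submitters' processing notes give. The annotation release and strand setting are not given in the sources used here, and the library kit differs between labels and methods. Of 54752 identifiers 54723 were matched to GENCODE M21 for symbols and GRCm38 positions. Libraries hold 36.8 to 61.9 M counts.

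The 16 libraries were fitted with edgeR 4.0.16 (R 4.3.3), by the quasi-likelihood test with robust dispersions, TMM scaling and filterByExpr by genotype (minimum count 10), which kept 19736 genes. The contrasts were SOD1G93A-Lepob/+ minus Lepob/+ and its difference from SOD1G93A minus WT, and p-values were adjusted over all genes by Benjamini-Hochberg. CPM are per TMM-scaled library, and SE is the log2 fold change over the root of F. DESeq2 1.42.0 and limma 3.58.1 (voom with quality weights) were alternatives, with other scalings, filters, covariates, a replicate block and left-out libraries. The procedure was tested on simulated data. The simulated spread of each gene was at most the median of the real genes, and no simulated library was set apart by lymph node or muscle RNA. It therefore does not show how the tests behave with such libraries. Nothing says that the samples of a group came from separate litters, so p-values measure the spread between these samples.

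Genes were named by rule: the 10 smallest p in each direction among genes with a mean of at least 1 CPM and no predicted-gene name, up to 4 members of each of 42 lists, the genes of the labels, up to 5 per direction of DESeq2 calls and the 5 smallest p for the difference. The members and lists were chosen with earlier results of these data known. Some genes that the rule selects are not reported here. Atf4, Bzw1, Ptp4a1, Acta1 and Ucp1 were chosen after their values were seen. Sequences and motif counts are from RefSeq promoters of GRCm38.p6.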

Additional observations from a re-analysis of the deposited data

Results flagged for a closer look

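In 168 sets of 4 libraries, 1 set for each named gene and genotype, 18 had a highest or lowest library set apart from the other 3 by Dixon's test on log2 CPM, which chance alone passes in about 1 of 20 sets. Of the 18, 6 belong to Lepob/+ replicate 4, the library with muscle RNA. Its levels were 44600 CPM for Acta1, 5790 CPM for Eno3, 5130 CPM for Ryr1, 963 CPM for Adssl1, 704 CPM for Scn4b and 274 CPM for Atf4, all above the other 3.

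Lepob/+ replicate 3, the library with lymph node RNA, was set apart by 614 CPM of Glycam1, 204 CPM of Cd22, 65.1 CPM of Cd8b1 and 313 CPM of Ucp1. Ucp1 is not a lymphoid gene, and the other 3 Lepob/+ libraries had 0.833 to 1.91 CPM of it. The library labelled SOD1G93A-Lepob/+ replicate 3 was set apart by 0 CPM of Xist, against 457 to 521 CPM in the other 3, and by 10.1 CPM of Slc36a1, against 37.8 to 47.6 CPM.

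Single libraries were set apart for Abhd15, at 29.5 CPM in Lepob/+ replicate 1 above the other 3 and at 32 CPM in SOD1G93A-Lepob/+ replicate 2 below them, although the groups did not overlap. Kmt2a was at 3.39 CPM in SOD1G93A-Lepob/+ replicate 1 against 59.2 to 69.3 CPM. Dnajc3 was at 146 CPM in SOD1G93A-Lepob/+ replicate 4 against 125 to 128 CPM. Gm45717 at 0.25 CPM and Ighg2b at 0.0999 CPM in SOD1G93A-Lepob/+ replicate 2 stood against 0 in the other 3, which is a difference of a few reads. The causes of these differences were not tested.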

How the results depend on the processing

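With edgeR, 0 genes were called under the size factors of DESeq2, scaling without the lymphoid and muscle lists, no filter, a stricter filter, the fit on the 8 libraries or covariates for lymph node and muscle RNA. DESeq2 called 77 genes on all 16 libraries (12 higher and 65 lower) and 34 on the 8 libraries, and limma voom called 2, Fbxo34 (log2 fold change -2.29, adjusted p = 0.00609) and Bzw1 (1.22, adjusted p = 0.0402). The 65 lower genes included lymphoid genes, such as Glycam1 (log2 fold change -29.9), Igkv4-70 (-22.5) and Trbv13-1 (-23.0). Glycam1 had 0 counts in every double mutant, so the size of its estimate is not a measured difference, and edgeR gave it -12.7. Leaving out 1 library gave 0 to 2 called genes, with 1 without Lepob/+ replicate 4 and 2 without SOD1G93A-Lepob/+ replicate 3. Without both Lepob/+ replicates 3 and 4 edgeR called 1, and without the 3 libraries that stood apart 3, namely Fbxo34, Ptp4a1 and Bzw1.

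The 1626 genes at an unadjusted p under 0.05 became 1005 with edgeR and 1034 with DESeq2 on the 8 libraries, 1004 with the covariates, 580 without Lepob/+ replicates 3 and 4 and 704 without the 3 libraries. Leaving out 1 library gave 1057 (without SOD1G93A-Lepob/+ replicate 1) to 2477 (without Lepob/+ replicate 1). Of these genes 23.8% were higher in SOD1G93A-Lepob/+, and 58.5% with the covariates, 48.5% with voom, 59.8% without Lepob/+ replicates 3 and 4 and 63.5% without the 3 libraries. For the difference between backgrounds, DESeq2 on all 16 libraries called 46, the fits without Lepob/+ replicates 3 and 4 and without the 3 libraries called 1 each, and leaving out 1 library gave 0 to 2.

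Groups share replicate numbers, but nothing in the labels ties a number to a litter or day. Deviations of same-numbered libraries correlated at -0.195, 0.119, -0.099 and -0.023, so the numbers were not read as pairs. With the replicate number as a block 0 genes were called, 760 had an unadjusted p under 0.05 and 45.8% of them were higher.

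Signs of some log2 fold changes turned. With voom Acta1 had 1.07, Cpt1b 0.69, Lepr 0.05, Sh2b1 0.02 and Slco5a1 0.61, and with the covariates Acta1 had 0.38, Lepr 0.29 and Ucp1 0.22. Without Lepob/+ replicates 3 and 4 the values were 0.17 for Acacb, 1.34 for Acta1, -0.12 for Cd163, 0.08 for Cd22, 0.20 for Cox7a1, 1.54 for Cpt1b, 1.05 for Ighg2b, 0.18 for Lepr, 0.18 for Scn4a, 0.12 for Sh2b1, 1.25 for Slco5a1, -0.06 for Sod1 and 2.47 for Ucp1. Without the 3 libraries they were 0.46 for Acacb, 1.42 for Acta1, -0.09 for Adipoq, 0.22 for Cd22, 1.41 for Cpt1b, 1.30 for Ighg2b, 0.21 for Lepr, 0.36 for Scn4a, 0.13 for Sh2b1, 1.32 for Slco5a1 and 0.09 for Ucp1. Leaving out 1 library gave -9.32 to 1.74 for Acta1, -5.95 to 0.20 for Cd22, -0.18 to 0.25 for Lepr, -5.66 to 2.67 for Ucp1 and -0.60 to 0.03 for Xist. The causes were not tested beyond the libraries and terms named. With 4 libraries a genotype and 12 residual degrees of freedom, a gene that misses the threshold is not shown to be equal.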

Other observations

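Some genes took a high and a low level with nothing between, in a way that the genotypes do not follow. The 16 libraries were ordered by level, and the widest gap with at least 2 libraries on each side was taken. Of 10825 genes with a mean of at least 10 CPM, 253 had such a gap of at least 1 on the log2 scale that was also wider than the spread on either side. In 200 of the 253 a low library occurred in all 4 genotypes, and in 0 were all 4 Lepob/+ libraries on one side and all 4 SOD1G93A-Lepob/+ libraries on the other. Glycam1, a gene of lymph node venules, is one of them, with 10 libraries at 0 to 0.0604 CPM and 6 at 203 to 614 CPM.

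Overlapping models on the same strand also differed in how counts were shared between them. Gm45717 spanned 0 to 176 CPM over the 4 Lepob/+ libraries, and its sum with Ifitm2 spanned 101 to 296 CPM. The annotation release and the strand setting of the deposited counts are not given in the sources used here, and whether reads were moved between such models was not tested.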
